A study of Mus musculus with 18 samples.

Results

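The Hox genes of clusters A to D were described in 18 lines of mouse embryo fibroblasts, cells grown out of embryos as adherent cultures. The members are all genes whose symbol is Hoxa, Hoxb, Hoxc or Hoxd followed by a number only. The RefSeq annotation lists 39 such genes, and 31 of them, among the 12394 genes with a usable probe set, were measured here. The other 8 were not analysed here.

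Hox genes encode transcription factors with a homeodomain that give cells of the embryo their address along the head-to-tail axis and, in the limb, along the axis from shoulder or hip to digits. In each cluster the genes lie in the order of their paralog numbers. Low numbers are switched on early and reach far towards the head, while high numbers are switched on later and stay nearer the tail or the tip of the limb. Fibroblasts in culture are known to keep part of the Hox code of the place they came from.

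The lines carried 3 copies of chromosome 1 (trisomy 1, 1 line), of chromosome 13 (trisomy 13, 4 lines), of chromosome 16 (trisomy 16, 3 lines) or of chromosome 19 (trisomy 19, 1 line), and 9 control lines had a normal chromosome set. All lines had been grown for 2 passages in the same medium, and total RNA of each was read on its own Affymetrix array. The labels name no mouse strain, sex, embryo age or part of the embryo. They also leave unsaid how the lines map to embryos, and the p-values below therefore cover line-to-line spread, which may be partly technical. Clusters A, B, C and D lie on chromosomes 6, 11, 15 and 2, so no Hox gene was itself present in an extra copy. Each line's name begins with a first number shared by 2 to 4 lines (MEF-89, MEF-92, MEF-666, MEF-776, MEF-780, MEF-836 or MEF-1113), and the labels do not explain this number. A partner pair is a trisomic line and the control line with the same first number and the nearest second number, which gives 9 pairs.

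Values are log2 probe set values as deposited, with 1 probe set for each gene, and a difference of 1 is a doubling. A gene was called on in a line at a value of 4 or more, which is a level chosen for these arrays and not a detection call. Values of different probe sets cannot be set against each other, so levels are compared only between lines. The number of arrays limits the precision. On 3 arrays the 3′ probe set of Gapdh exceeded its 5′ probe set by 5.57 to 6.94. They were trisomy 16 replicate 1 and trisomy 13 replicates 3 and 4. On the other 15 arrays the difference was −0.20 to 1.41. Some results that rest on these 3′-biased arrays are also given without them, and the others include them. Of 12 fibroblast markers, 11 were on in every line, and the 5 endothelial and 2 erythroid markers measured were off in every line. Markers of other cell types were partly on: 2 of 9 neural, 2 of 6 skeletal muscle and 2 of 6 cartilage and bone markers in every line. Of 7 epithelial markers, 0 were on in every line and 4 were off in every line. The mean of 10 macrophage markers was 2.87 in trisomy 1, 3.02 to 5.83 in trisomy 13, 3.00 to 3.15 in trisomy 16, 2.99 in trisomy 19 and 2.76 to 5.32 in controls, with the highest values in trisomy 13 replicate 4 and control replicate 8.

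Of the 31 Hox genes, 9 were on in all 18 lines, 10 were on in some lines and 12 were off in all lines. In these bulk cultures fewer cells with a message and less message per cell cannot be told apart. Over all 12394 genes the shares were 53.7% on in every line, 11.2% mixed and 35.1% off in every line. The 9 genes on everywhere were Hoxa5, Hoxa9, Hoxa10, Hoxa11, Hoxb3, Hoxb6, Hoxc4, Hoxc8 and Hoxd8. By position, 1 of 6 measured genes with paralog numbers 1 to 3 was on everywhere, as were 5 of 12 with numbers 4 to 8 and 3 of 13 with numbers 9 to 13. The number of Hox genes on was 13 in trisomy 1, 13 to 16 in trisomy 13, 12 to 13 in trisomy 16, 12 in trisomy 19 and 12 to 14 in controls. In trisomy 13 the 3′-biased arrays of replicates 3 and 4 had 16 and 13, and replicates 1 and 2 had 14 and 15.

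**Figure D1:**
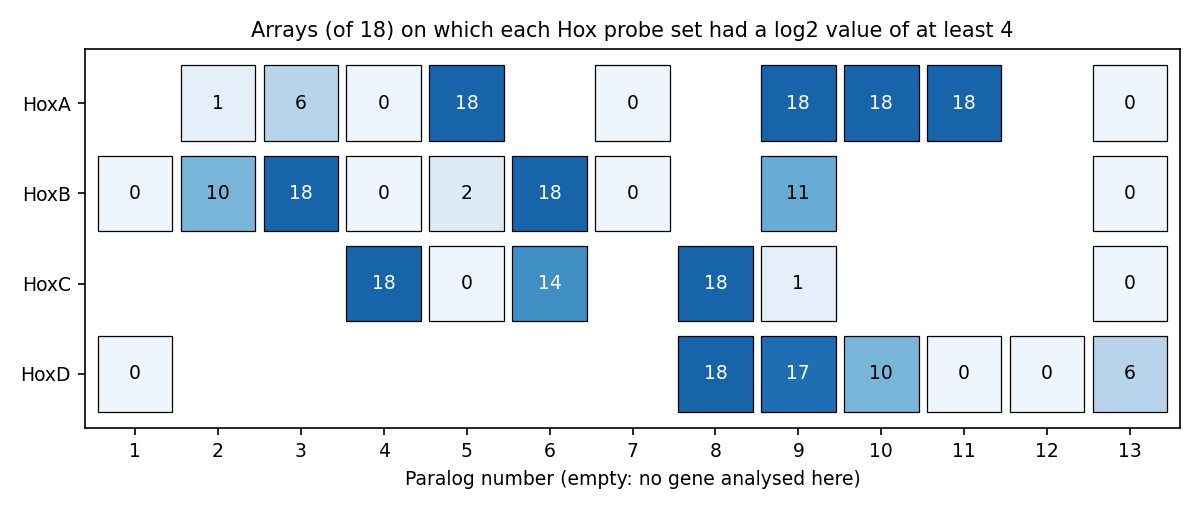
Each square is a Hox gene, with clusters in rows and paralog numbers along the x axis, and its number and shade give on how many of the 18 arrays the probe set had a log2 value of at least 4. Positions without a square hold no gene analysed here; Hoxa9, Hoxa10 and Hoxa11 are on in all 18 arrays, while Hoxa13, Hoxb13 and Hoxc13 are on in none and Hoxd13 is on in 6.

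Cluster A was on from Hoxa9 to Hoxa11 in every line and off at Hoxa13. Hoxa9 and Hoxa10, which help to pattern the trunk, the limb and the female reproductive tract, had values of 8.62 to 10.62 and 7.60 to 9.20. Hoxa11, which works with Hoxd11 in the forearm and shin, had a value of 6.72 in trisomy 1, 6.53 to 7.61 in trisomy 13, 6.12 to 7.14 in trisomy 16, 6.47 in trisomy 19 and 5.61 to 7.39 in controls. The groups overlap throughout. Hoxa13, which patterns the hand and foot plate and the urogenital tract, lay between 2.04 and 2.16 on all 18 arrays. The 250 bases upstream of the start of each of these neighbours at the edge of the expressed stretch are shown because their CpG content differs. They come from RefSeq (GRCm38.p6, both on the minus strand, chr6:52245811-52246060 for Hoxa11 and chr6:52260881-52261130 for Hoxa13), with CG in capitals.
Hoxa11: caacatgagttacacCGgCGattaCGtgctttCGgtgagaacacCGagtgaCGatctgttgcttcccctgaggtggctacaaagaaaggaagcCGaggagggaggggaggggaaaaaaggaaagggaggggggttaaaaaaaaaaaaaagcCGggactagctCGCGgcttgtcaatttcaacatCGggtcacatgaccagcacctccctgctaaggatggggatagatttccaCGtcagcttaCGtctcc
Hoxa13: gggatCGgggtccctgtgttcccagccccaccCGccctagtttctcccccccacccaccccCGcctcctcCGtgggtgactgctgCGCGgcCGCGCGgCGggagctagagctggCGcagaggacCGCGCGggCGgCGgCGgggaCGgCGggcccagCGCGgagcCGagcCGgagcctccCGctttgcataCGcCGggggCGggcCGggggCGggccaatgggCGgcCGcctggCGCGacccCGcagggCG
The Hoxa11 window holds 13 CG, more than 68.2% of the 27025 windows of this length, and the Hoxa13 window holds 35, more than 97.2% of them. The median window holds 6. Over the 18 Hox members with such a window, the median was 7.5 CG for 6 genes on everywhere, 18 for 5 mixed genes and 10 for 7 genes off everywhere, with ranges that overlap (3 to 28, 6 to 31 and 2 to 35).

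At lower paralog numbers of cluster A, Hoxa5, which patterns the lower neck, upper thorax and lung, was on in every line at 4.29 to 6.93. Hoxa3, which is needed for thymus and parathyroid formation, was on in 6 lines and had a mean of 4.00, just under the minimum for testing. It was high in trisomy 13 replicate 4 (6.73) and replicate 3 (4.74), trisomy 16 replicate 1 (6.41), trisomy 1 (4.89), control replicate 9 (5.34) and control replicate 2 (4.19), and lay at 2.99 to 3.72 elsewhere. All 3 of the 3′-biased arrays are among the 6, and their part in these values was not tested. Hoxa2, a hindbrain and second-arch gene, was on only in trisomy 13 replicate 3, a 3′-biased array. Hoxa4 and Hoxa7 were off in every line.

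In cluster B, Hoxb3 (4.01 to 6.60) and Hoxb6 (5.52 to 7.46) were on in every line. Hoxb3 acts in the hindbrain and throat, and Hoxb6 is a gene of the trunk and lateral plate mesoderm. Hoxb2 was on in 10 lines and Hoxb9 in 11. Hoxb5 was on in 2 lines, trisomy 13 replicates 3 and 4, both with 3′-biased arrays. Hoxb1, Hoxb4, Hoxb7 and Hoxb13 were off in every line. A probe set listed for Hoxb8 and Hoxb7 together, which the rule leaves out, was on in all 18 lines, with a median of 7.22 in trisomic lines and 7.17 in controls, whereas the probe set for Hoxb7 alone was off.

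In cluster C, Hoxc4 (5.06 to 6.85) and Hoxc8 (6.36 to 10.21) were on in every line, and Hoxc6 was on in 14. Hoxc6 and Hoxc8 are genes of the thoracic trunk and the forelimb region. Hoxc9 reached 4 in control replicate 3 only, and Hoxc5 and Hoxc13 stayed below 4. In cluster D, Hoxd8, a trunk gene, was on in every line (6.17 to 8.94), Hoxd9 in 17 and Hoxd10 in 10, while Hoxd1, Hoxd11 and Hoxd12 were off in all. Hoxd13, the gene for the digits and external genitalia at the far end of the cluster, was on in 6 lines.

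Low values do not all mean the same thing on these probe sets. Of the 12 genes off everywhere, 7 had a range under 0.5 over the 18 arrays and stayed at or below 2.70, and showed no difference between lines to compare. Hoxa9 has a second probe set that lay between 1.48 and 1.60 on all arrays while the one used read 8.62 to 10.62. An off call therefore does not show that a gene was silent.

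The highest measured paralog on was taken as the tail-ward or tip-ward end of the expressed stretch in a line. Genes that were not measured could lie beyond it. In cluster A the highest gene on was Hoxa11 in all 18 lines. In cluster B it was Hoxb9 in 11 lines and Hoxb6 in 7, among them all the 3′-biased arrays. The probe set listed for Hoxb8 and Hoxb7 together was on in all 18 lines, so the stretch may reach past Hoxb6 in those 7. In cluster C it was Hoxc8 in 17 lines and Hoxc9 in control replicate 3. Of the 9 genes of cluster C, 3 were not measured, and no gene between Hoxc9 and Hoxc13 was read. The end of cluster C is therefore not known. Cluster D differed most between lines: the highest gene on was Hoxd9 in 8 lines, Hoxd10 in 4 and Hoxd13 in 6. The lines ending at Hoxd10 were the 3′-biased arrays and control replicate 7, so without those arrays only control replicate 7 ended there. Hoxd11 and Hoxd12 were off in every line, with ranges of 0.10 and 0.12, so the stretch to Hoxd13 is not unbroken on these probe sets. The windows upstream of Hoxd10 and Hoxd13 are shown because 1 of these genes was the highest on in cluster D in 10 lines (RefSeq, GRCm38.p6, plus strand, chr2:74691641-74691890 for Hoxd10 and chr2:74667975-74668224 for Hoxd13, CG in capitals).
Hoxd10: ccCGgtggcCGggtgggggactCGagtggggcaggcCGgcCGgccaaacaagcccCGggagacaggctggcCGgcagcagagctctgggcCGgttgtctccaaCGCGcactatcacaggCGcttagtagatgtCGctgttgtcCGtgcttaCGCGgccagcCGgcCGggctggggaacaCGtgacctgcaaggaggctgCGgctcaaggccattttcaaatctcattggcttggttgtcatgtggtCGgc
Hoxd13: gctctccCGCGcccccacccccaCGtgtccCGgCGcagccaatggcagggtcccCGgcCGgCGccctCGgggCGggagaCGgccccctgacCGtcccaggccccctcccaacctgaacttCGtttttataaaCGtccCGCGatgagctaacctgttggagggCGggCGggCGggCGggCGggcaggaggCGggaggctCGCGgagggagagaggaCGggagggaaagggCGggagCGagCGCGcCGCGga
The Hoxd10 window holds 20 CG and the Hoxd13 window 31, more than 82.3% and 95.1% of all windows. On either strand, the motif TATAAA occurs in the Hoxd13 window, with 2 matches that overlap on opposite strands, and in no other Hox window, and 12.97% of all windows hold it. The motif GGGCGG has 7 matches in the Hoxd13 window, some overlapping each other, and none in that of Hoxd10, and 32.94% of all windows hold it. The Hox and Pbx motif TGATTNAT occurs in 1 of 18 Hox windows, that of Hoxa2, and in 2.99% of all windows. The motif CCAAT occurs in 9 of 18 Hox windows and in 34.46% of all windows. A match of letters is not a binding site.

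Hoxd13 was on in lines of 3 first numbers. In the MEF-776 lines it read 5.59 in trisomy 13 replicate 1 and 4.59 in control replicate 4. In the MEF-780 lines it read 4.25 in trisomy 13 replicate 2 and 2.03 in trisomy 13 replicate 3, against 5.33 in control replicate 5 and 6.64 in control replicate 6. In the MEF-836 pair it read 2.14 in trisomy 1 and 4.71 in control replicate 9. Thus 2 of 9 trisomic lines and 4 of 9 control lines had Hoxd13 on, and the remaining 12 lines lay between 1.75 and 3.16. The low MEF-780 line is a 3′-biased array.

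Hoxd10, which patterns the lumbar region and the hindlimb, read 3.86 in trisomy 1, 5.66, 4.23, 6.03 and 7.33 in trisomy 13 replicates 1 to 4, 4.97, 3.58 and 2.75 in trisomy 16 replicates 1 to 3, and 2.33 in trisomy 19. The controls ran from 3.01 to 7.07 with a median of 4.20. All 4 trisomy 13 lines had it on, and so did their 4 control partners at 4.88, 4.20, 4.82 and 4.92. Control replicate 9 stood far above its partner with trisomy 1.

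Hoxc6 was high in 4 lines, a pair of trisomic lines and their control partners. It read 7.79 and 8.30 in trisomy 16 replicates 2 and 3, and 7.62 and 8.27 in their partners, control replicates 2 and 3. No other line exceeded 5.90. In the remaining lines it read 4.92 in trisomy 1, 4.82, 5.90, 4.02 and 2.99 in trisomy 13 replicates 1 to 4, 4.00 in trisomy 16 replicate 1 and 5.83 in trisomy 19, against 3.55 to 5.69 in the other 7 controls. MEF-89 holds lines of both kinds: trisomy 16 replicate 3 and control replicate 3 were high, while trisomy 16 replicate 1 and control replicate 1 read 4.00 and 5.42. A second Hoxc6 probe set followed the first with a Pearson r of 0.96 over the 18 arrays, and another, which ran from 2.88 to 4.88, had an r of 0.70.

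Its neighbours Hoxc5 and Hoxc9, although below the level of 4 in nearly all lines, had their highest values on the same 4 arrays. Hoxc5 read 3.93 and 3.80 in trisomy 16 replicates 2 and 3, and 3.98 and 2.65 in control replicates 2 and 3, while no other array exceeded 2.47. Hoxc9 read 3.63 and 3.33 in these trisomy 16 lines and 3.92 and 4.35 in these controls, while no other array exceeded 2.35. These 4 lines were thus the highest of the 18 for all 3 of these genes. They were not set apart by Hoxc4, which ran from 6.10 to 6.85 in them and from 5.06 to 6.51 elsewhere.

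Hoxb9, a thoracic gene of cluster B, had the widest range over the controls of any tested Hox gene, 6.23 on the log2 scale. It read 3.18 in trisomy 1, 6.50, 6.76, 3.71 and 1.85 in trisomy 13 replicates 1 to 4, 3.22, 5.45 and 3.16 in trisomy 16 replicates 1 to 3, and 7.48 in trisomy 19. The controls ran from 1.84 to 8.08 with a median of 6.06. Both MEF-1113 lines (7.48 in trisomy 19 and 8.08 in control replicate 8) were the highest of the 18. The MEF-836 pair and the pair of trisomy 16 replicate 3 and control replicate 3 had it off. In the other 3 lines with Hoxb9 off the array was 3′-biased, and their control partners read 5.41 to 6.06.

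Hoxb2, which marks the hindbrain and its neural crest, read 5.57 in trisomy 1, 3.91 to 5.34 in trisomy 13, 4.40 to 5.92 in trisomy 16, 3.88 in trisomy 19 and 3.39 to 6.56 in controls. All 6 MEF-89 and MEF-92 lines had it on. The MEF-666, MEF-776 and MEF-780 controls all lay at 3.39 to 3.46, and each of the 4 trisomy 13 lines read above its partner. Hoxc8 and Hoxd8, the genes with paralog number 8 in 2 clusters, followed each other across lines, with an r of 0.87 over the 15 arrays without 3′ bias.

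**Figure D2:**
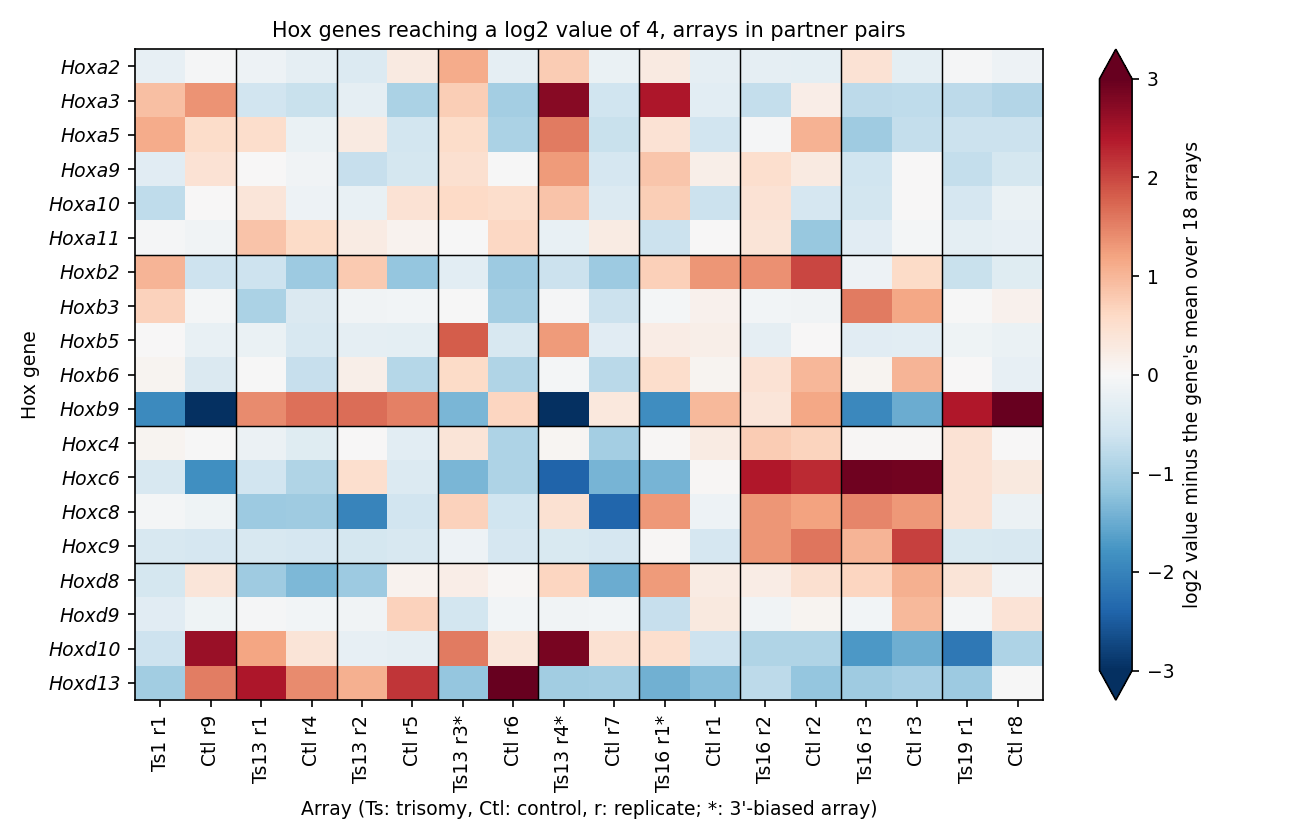
Colours show the log2 value of each Hox gene that reached 4 on any array, minus its own mean over 18 arrays (red above, blue below, scale capped at 3), with arrays along the x axis as partner pairs, the trisomic line left of its control. Hoxc6 and Hoxc9 are red in the pairs of trisomy 16 replicates 2 and 3, Hoxd13 in the MEF-776 and MEF-780 lines apart from trisomy 13 replicate 3 and in control replicate 9, and Hoxb9 in the pair of trisomy 19.

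**Figure D3:**
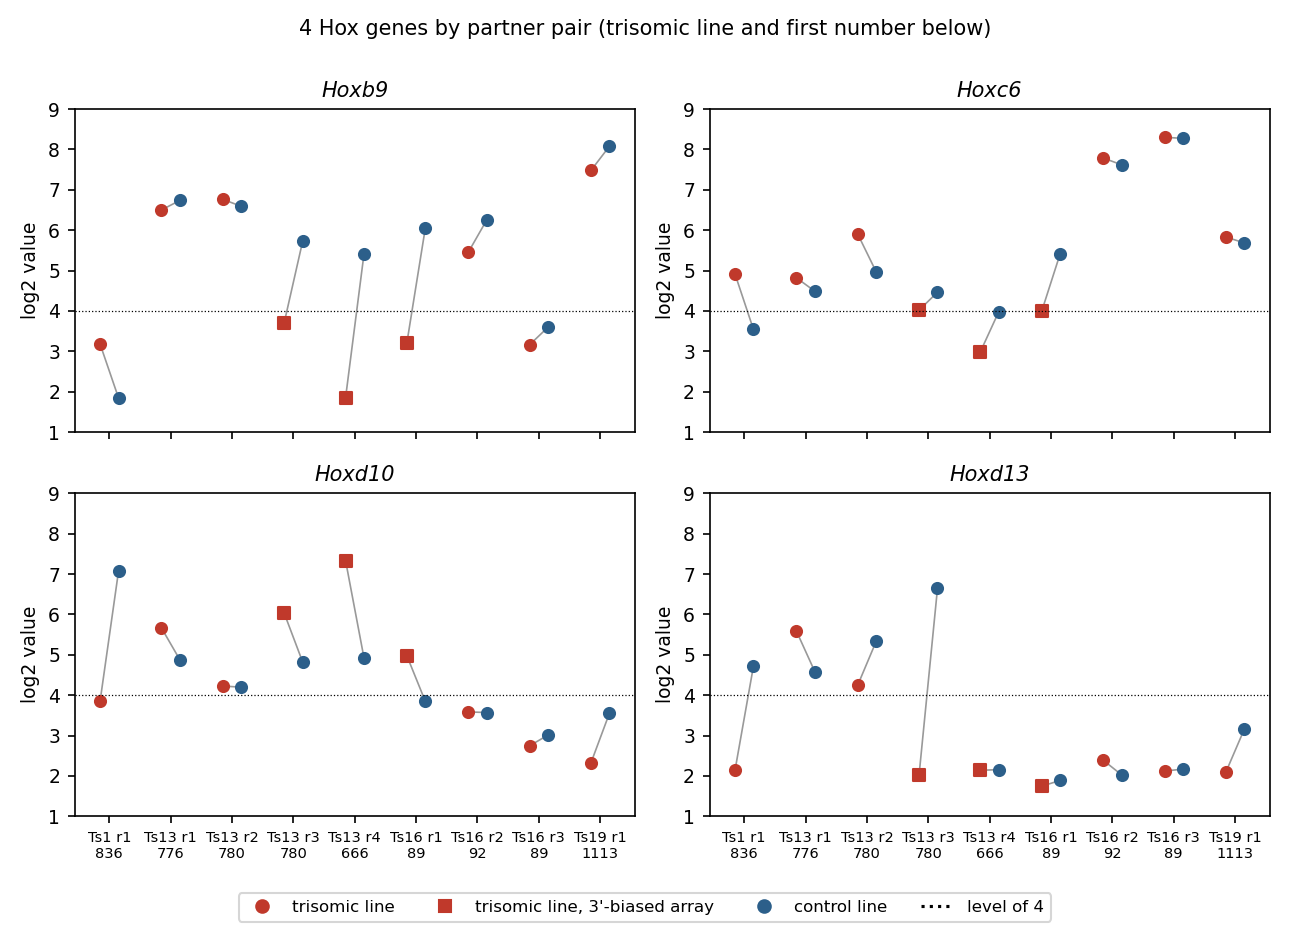
The y axis gives the log2 value of Hoxb9, Hoxc6, Hoxd10 and Hoxd13 in each of the 9 partner pairs along the x axis, with the trisomic line in red on the left, its control in blue on the right, squares for 3′-biased arrays and a dotted line at 4. Partners lie close for Hoxc6 in some pairs (8.30 and 8.27 in that of trisomy 16 replicate 3). In others Hoxc6 differs (trisomic minus control), by −1.42 for trisomy 16 replicate 1 and 1.37 for trisomy 1. Hoxd13 differs by −4.62 in the pair of trisomy 13 replicate 3 and Hoxd10 by −3.21 in the pair of trisomy 1.

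Hox genes varied more between lines than most genes did. Over the 9 control lines the SD had a median of 0.71 over the 14 tested Hox genes and of 0.38 over all 7382 tested genes, and 13 of the 14 Hox genes lay above 0.38. Without the 3′-biased arrays the medians over the remaining 15 lines were 0.71 and 0.40. These 14 are the Hox genes with a mean of at least 4, so genes that are off are not among them. Hoxb2, Hoxb9, Hoxc6, Hoxd9 and Hoxd10 among them were on in only some lines, and the genes compared were not matched for level.

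Part of this spread was shared by partners. The median absolute difference was 0.56 between the lines of a partner pair and 0.69 between other lines for the Hox genes, against 0.33 and 0.46 for all tested genes. Partners were closer than other lines for 11 of 14 Hox genes, and for 79.7% of all tested genes, a share near that of the Hox genes. Hoxc6 lay at one end, with medians of 0.45 between partners and 1.75 between other lines, and 93.3% of its variance lay between the 9 pairs. Hoxb9 had medians of 0.80 and 2.16, with 78.1% of its variance between pairs, and for Hoxb3 that share was 82.5%. The median share between pairs was 58.3% over the Hox genes and 63.5% over all tested genes.

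**Figure D4:**
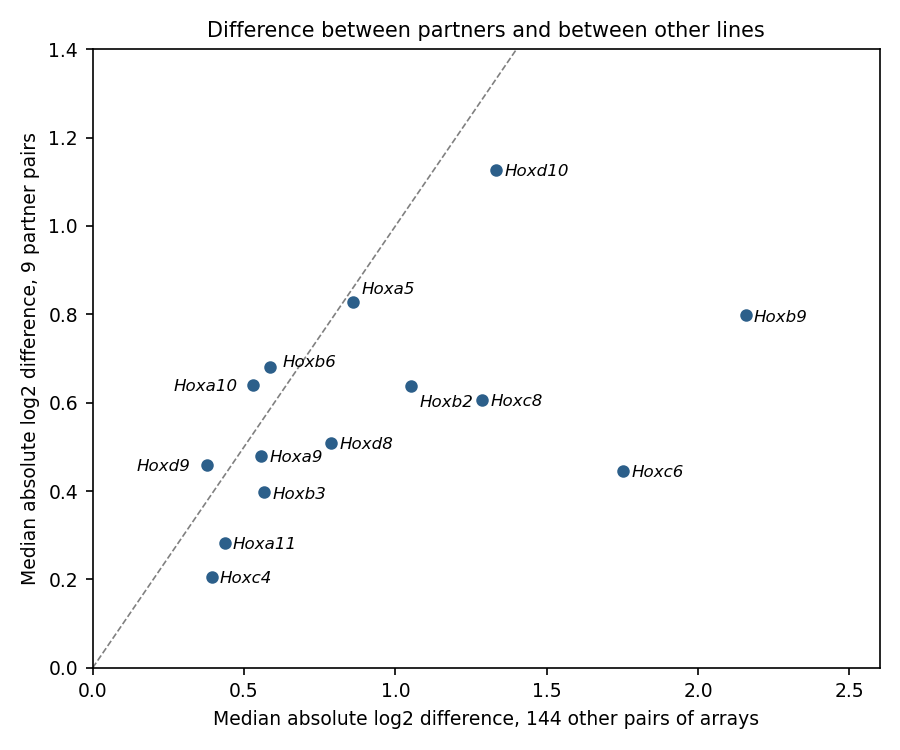
Each point is 1 of the 14 tested Hox genes, with the median absolute log2 difference over 144 other pairs of arrays on the x axis and over the 9 partner pairs on the y axis, and the dashed line marks equal values. The 11 points below the line are closer in partners, Hoxc6 (0.45 against 1.75) and Hoxb9 (0.80 against 2.16) most of all, while Hoxa10, Hoxb6 and Hoxd9 lie above it.

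Differences between the 7 first numbers, with the chromosome groups in the model, were tested with limma's moderated F test and adjusted by Benjamini-Hochberg over all tested genes. No Hox gene passed at an adjusted p under 0.05, where 0.108% of the 7382 genes and 0.0808% of those outside the trisomic chromosomes did. At an unadjusted p under 0.05 there were 3 Hox genes of 14 and 503 genes of 7382. Without the 3′-biased arrays these counts were 8 of 14 and 1174 of 7352, and without trisomy 16 replicate 1 alone they were 6 of 14 and 644 of 7374. Hoxb2 had the lowest p (adjusted p = 0.261 in limma), followed by Hoxb9 (adjusted p = 0.515 in limma), Hoxb6 (adjusted p = 0.642 in limma) and Hoxd10 (adjusted p = 0.743 in limma). With the 9 partner pairs in place of the first numbers, a choice made after seeing the data, Hoxc6 had the lowest p (adjusted p = 0.0725 in limma), and again no Hox gene passed. In the series as a whole, 10 of 18 lines had their partner as the most similar line over all tested genes, and 8 of 18 did over the Hox genes alone.

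No Hox gene passed the test in any comparison of chromosome groups. The comparisons with control share the same 9 control lines, and limma fitted all 5 groups together. In trisomy 13, 0 of 14 Hox genes passed, where 1.76% of all tested genes and 1.29% of those outside the trisomic chromosomes did. At an unadjusted p under 0.05 there were 1 Hox gene and 1617 genes of 7382. With the first number as a block these counts were 4 and 1049, and with the partner pair as a block 5 and 1784. Without the 3′-biased arrays they were 0 of 14 and 706 of 7352. Against all 9 controls the median log2 difference was 0.09 over the Hox genes and 0.01 over all tested genes, with 7 Hox genes above 0 and 7 below. Signs can differ against partners: Hoxb2 differed by −0.03 from all controls, yet each trisomy 13 line read above its partner, by 0.45 to 1.95.

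Hoxa5 had the lowest p in trisomy 13. It read 5.90, 5.64, 5.93 and 6.93 in the 4 trisomy 13 lines, against 4.42 to 6.40 with a median of 4.79 in controls. All 4 trisomy 13 lines lay above their own partners, but the range of the controls reaches into theirs. No Hox gene had every trisomy 13 line above every control (1.77% of all tested genes) or below every control (1% of them). The difference was 1.03 ± 0.39 on the log2 scale (SE, 4 against 9 lines, adjusted p = 0.153 in limma). It was 0.70 without the 3′-biased arrays (adjusted p = 0.689) and 0.76 without trisomy 13 replicate 4, the line with the highest macrophage marker mean, whose part in this was not tested.

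Hoxd10 averaged 5.81 ± 1.28 in trisomy 13 (SD, n = 4) and 4.43 ± 1.20 in controls (SD, n = 9). The difference of 1.38 ± 0.67 (SE) did not pass in limma (adjusted p = 0.237), and it was 0.52 without the 3′-biased arrays. Hoxa10 differed by 0.50 ± 0.29 (SE), with 8.13 to 9.20 in trisomy 13 and 7.69 to 8.88 in controls, and by 0.18 without the 3′-biased arrays. Hoxd9, a neighbour of Hoxd10, differed by −0.42 ± 0.26 (SE), with 4.03 to 4.53 in trisomy 13 and 4.45 to 5.54 in controls. Neither passed in limma (adjusted p = 0.309 for Hoxa10 and 0.335 for Hoxd9).

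In trisomy 16, 0 of 14 Hox genes passed, where 0.0406% of all tested genes did. At an unadjusted p under 0.05 there were 1 Hox gene and 516 genes of 7382. The median difference was 0.40 over the Hox genes, 10 of which lay above 0, and −0.05 over all tested genes. Hoxc8 had the lowest p. It read 10.05, 10.07 and 10.21 in trisomy 16, against 6.36 to 10.04 with a median of 8.56 in controls, so that all 3 trisomy 16 lines lay above every control, although the highest control read nearly the same as the lowest of them. This held for 1 of 14 Hox genes and for 1.12% of all tested genes, and the reverse for 0 of 14 and 0.447%. The difference was 1.66 ± 0.65 (SE, 3 against 9 lines, adjusted p = 0.607 in limma). Their MEF-89 and MEF-92 control partners read 8.59, 9.94 and 10.04. With the first number or the replicate number of these paired lines as a block the difference was 0.59 (adjusted p = 0.609 in limma for replicates 1 to 3 alone). By pair it was 1.46 for trisomy 16 replicate 1, a 3′-biased array, and 0.13 and 0.17 for replicates 2 and 3.

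Hoxd8 had 8.94, 7.88 and 8.32 in trisomy 16, against 6.17 to 8.73 with a median of 7.78 in controls. Its difference was 0.79 ± 0.51 (SE, adjusted p = 0.770 in limma), and it was 0.12 with the paired lines as a block. By pair it was 1.02 for trisomy 16 replicate 1, a 3′-biased array, and −0.26 and −0.41 for replicates 2 and 3. Hoxd9 had 3.89, 4.48 and 4.49 in trisomy 16 and 4.45 to 5.54 in controls, a difference of −0.52 ± 0.28 (SE, adjusted p = 0.758 in limma) that was −0.32 without the 3′-biased arrays. Hoxb9, with a difference of −1.64 ± 1.15 (SE, adjusted p = 0.773 in limma), overlapped with the controls over its whole range.

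**Figure D5:**
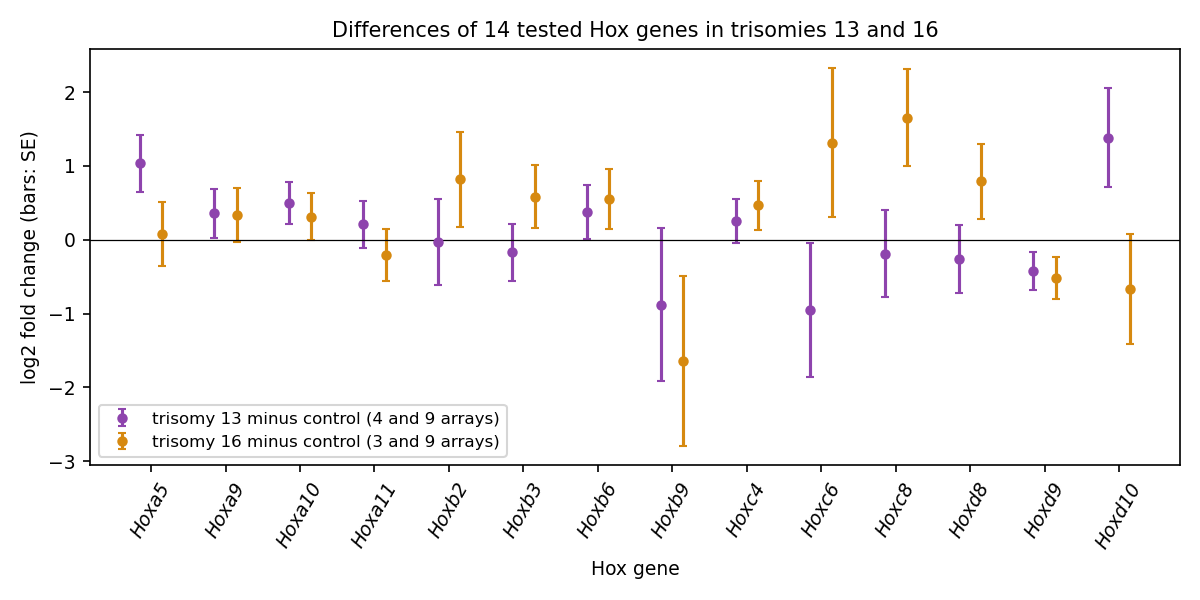
Points give the log2 difference from control of the 14 tested Hox genes in trisomy 13 (purple, 4 lines) and trisomy 16 (orange, 3 lines), against the same 9 controls, with SE bars from limma. Hoxa5 (1.03) and Hoxd10 (1.38) are highest in trisomy 13 and Hoxc8 (1.66) in trisomy 16, and none passed after adjustment over 7382 genes.

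The other comparisons gave no call among the Hox genes either. In trisomy 1, a single line that limma assumes to vary like the others, 0 of 14 passed where 0.0406% of all tested genes and 0.0162% of those outside the trisomic chromosomes did, and Hoxa5 had the lowest p with 6.49 in trisomy 1 against a control mean of 5.07 (adjusted p = 0.816 in limma). In trisomy 19, also a single line, 0 of 14 passed where 0% of all tested genes did. Its lowest p was that of Hoxd10, with 2.33 in trisomy 19 against a control mean of 4.43 (adjusted p = 1.0 in limma). At an unadjusted p under 0.05 there was no Hox gene in either, among 464 genes in trisomy 1 and 145 in trisomy 19. For all 9 trisomic lines against the 9 controls, 0 of 14 passed where 0.0542% of all tested genes and 0.0646% of those outside the trisomic chromosomes did, with 1 Hox gene and 567 genes at an unadjusted p under 0.05. For trisomy 13 minus trisomy 16, 0 of 14 passed where 2.42% and 1.75% did, with 2 Hox genes and 1312 genes at an unadjusted p under 0.05.

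Between trisomies 13 and 16 the lowest p was that of Hoxc8, with means of 8.26 in trisomy 13 and 10.11 in trisomy 16, a difference of −1.85 ± 0.75 (SE, adjusted p = 0.204 in limma). Hoxd10 had means of 5.81 in trisomy 13 and 3.77 in trisomy 16, a difference of 2.05 ± 0.85 (SE, adjusted p = 0.214 in limma). These groups share no first number, but each of their first numbers also holds controls. With the first number as a block the difference was 0.09 for Hoxc8 and 0.82 for Hoxd10. The Hoxc8 values of the control partners were 6.36 to 8.16 for trisomy 13 and 8.59 to 10.04 for trisomy 16. Over all trisomic lines, Hoxd9 was lower in the trisomic line in 8 of 9 partner pairs, by a median of 0.46, and Hoxc4 was higher in 8 of 9, by a median of 0.18. Each is 1 of 14 Hox genes, and 4.04% of all tested genes were lower and 3.94% higher in at least 8 pairs. Hoxd9 did not pass over all trisomies (difference −0.46 ± 0.20, SE, adjusted p = 0.609 in limma).

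The 3′-biased arrays differed from the rest in many Hox probe sets. Their mean minus the mean of the other 15 was 1.96 for Hoxd10, 1.04 for Hoxa9, 1.02 for Hoxa5, 0.99 for Hoxc8, 0.87 for Hoxa10 and 0.84 for Hoxd8, but −2.60 for Hoxb9 and −2.06 for Hoxc6. All 3 lay above the median of the other arrays for 8 of 14 Hox genes and for 41.7% of all tested genes. Without these arrays 10 Hox genes were on in every line, Hoxd9 being added, 7 were mixed and 14 were off.

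Among the tested Hox genes, pairs from the same cluster had a median r of 0.35 over the 15 arrays without 3′ bias (18 pairs), and pairs from different clusters 0.02 (73 pairs). The arrays share the groups and first numbers described above, so these values are descriptions. The lowest r was −0.74, for Hoxc6 and Hoxd10. By the rule for the most variable Hox gene, the 5 tested genes most like Hoxb9 over the 18 arrays were Dlc1 (r = 0.94), Kdelr1 (0.90), Ppp3r1 (0.87), Raly (0.87) and Max (0.86).

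Hox proteins bind DNA together with partners of the TALE class, the Pbx, Meis and Pknox proteins. Of 8 such genes measured, 5 were on in every line, 6 were tested and none passed in any comparison. The lowest p in trisomy 13 was that of Meis2 (difference −0.78 ± 0.32, SE, adjusted p = 0.183 in limma), followed by Pbx2 (−0.59 ± 0.27, SE, adjusted p = 0.216 in limma). Meis1 read 9.38 to 9.65 in trisomy 16, against 7.76 to 9.76 in controls (adjusted p = 0.758 in limma).

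Polycomb proteins keep silent Hox genes shut and Trithorax proteins keep active ones open. Of 19 such genes measured, 14 were on in every line and 15 were tested. In trisomy 13, 1 of the 15 rose and 1 fell, where 1.76% of all tested genes passed. Ezh1, a histone H3 lysine methyltransferase of Polycomb complex PRC2, read 5.55, 5.94, 5.98 and 6.28 in trisomy 13, against 4.96 to 5.32 in controls, a difference of 0.83 ± 0.19 (SE, adjusted p = 0.0413 in limma). Kmt2a, the Trithorax-class methyltransferase also called MLL, read 7.74, 7.37, 6.05 and 6.64 in trisomy 13, against 7.46 to 8.53 in controls, a difference of −1.15 ± 0.28 (SE, adjusted p = 0.0486 in limma). Without the 3′-biased arrays, which are the 2 lowest Kmt2a and the 2 highest Ezh1 values of trisomy 13, the difference was −0.55 for Kmt2a (adjusted p = 0.558) and 0.63 for Ezh1 (adjusted p = 0.408), and neither passed. Neither passed with the first number as a block (adjusted p = 0.220 for Ezh1 and 0.295 for Kmt2a in limma). Averaged over its probe sets, Kmt2a differed by −0.21.

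Upstream of Hox genes in the embryo stand the Cdx factors, retinoic acid and Gdf11. Of 10 such genes measured, 3 were on and tested (among them Aldh1a2, the enzyme that makes retinoic acid, and Ctcf), none passed, and Cdx1, Cdx2 and Cdx4 were off in every line. Of 37 other positional and limb genes measured, 12 were on in every line, 15 were off in every line and 20 were tested. The 12 were Tbx3, Tbx15, Tbx18, Shox2, Prrx1, Prrx2, Twist1, Foxc2, Foxd1, Irx3, Irx5 and Zic1. Those off in all 18 lines included the forelimb gene Tbx5 and the hindlimb genes Tbx4 and Pitx1. None of the 20 passed between chromosome groups. Between first numbers 1 of 20 passed, where 0.108% of all tested genes did. This was Msx1, a limb and craniofacial factor downstream of BMP signals (adjusted p = 0.0433 in limma). The call was lost in 16 of 26 alternative settings, over which its adjusted p in limma ran from 0.0186 to 0.375.

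Msx1 read 6.97, 4.67 and 5.45 in trisomy 16 replicates 1 to 3 and 4.31, 3.69 and 4.39 in control replicates 1 to 3, all of them MEF-89 or MEF-92 lines. In the lines with other first numbers it ran from 6.52 to 9.89. Lhx9, a limb and gonad factor, read 6.91 and 4.52 in trisomy 16 replicates 2 and 3 and 6.04 and 3.82 in control replicates 2 and 3, the 4 lines with high Hoxc6, against 8.29 to 11.67 elsewhere. Over the 18 arrays the r with Hoxc6 was −0.90 for Lhx9, −0.80 for Pax3 and −0.77 for Msx1. Lhx9 and Pax3 were picked after their values were seen, and the points share first numbers.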

How the data were processed

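The authors deposited 1 table of log2 values for 22690 probe sets on 18 arrays, made with GCRMA and affy per the submitters' processing notes, with versions and settings not given in the sources used here. Only the 20393 probe sets paired with exactly 1 gene in the array's annotation were used, and symbols were updated by Entrez identifier through RefSeq (GRCm38.p6). The probe set with the highest mean was kept for each of 12394 genes, and 7382 genes with a mean of at least 4 went into limma 3.58.1, run in R 4.3.3 (lmFit and eBayes, trend on, 5 groups, two-sided, Benjamini-Hochberg adjusted p under 0.05 over all tested genes). First numbers were tested with the F test of a fit that also holds the groups. The tests were checked on simulated data.

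The Hox members and the other gene lists were chosen with earlier results of these data known. Named were the Hox genes past the threshold, the 4 with the lowest p in trisomy 13, in trisomy 16 and between first numbers, the 6 with the widest control range, the highest paralogs on, the 5 genes most like the most variable one, and from other lists the members past the threshold or the 2 with the lowest p. Promoter windows were searched on both strands for the 4 motifs named in the text, without removing overlaps. Deviations from group means correlated by 0.52, 0.41 and 0.58 between trisomy 16 and control replicates 1 to 3, whose first numbers also match, so these replicate numbers pair the samples. They did not for trisomy 13 (−0.26 to −0.03). Between trisomy 13 replicates 1 to 4 and their partners, these correlations were 0.36, 0.16, 0.05 and −0.10 over all tested genes. The likeness of partners was thus weak or absent in most of the trisomy 13 pairs. Alternatives changed the filter, probe set rule, scaling, blocks and arrays used.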

Additional observations from a re-analysis of the deposited data

Results flagged for a closer look

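In 38 groups of 4 to 9 lines, 1 Hox value stood apart from the rest of its group in 5 cases by Dixon's criterion, which flags about 1 group in 20 by chance. Hoxd10 read 7.07 in control replicate 9, against a next value of 4.92 among the controls. Hoxa11 read 5.61 in control replicate 2, the lowest control, with the next at 6.51. Hoxa2 read 3.17 in control replicate 5, with the next at 2.85, both below the level of 4. In trisomy 13, Hoxb3 read 4.08 in replicate 1, with the next at 4.95, and Hoxd9 read 4.03 in replicate 3, a 3′-biased array, with the next at 4.47.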

How the results depend on the processing

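No Hox gene passed in any of 201 further fits under 33 alternative settings, and the lowest adjusted p of any was 0.0725. The replicate block gave 0 Hox genes in every comparison of groups, whether the block was the replicate number, the first number, the partner pair or trisomy 16 and control replicates 1 to 3, and it changed no Hox call. With the first number or the partner pair as a block, Ezh1 (adjusted p 0.220 and 0.108 in limma) and Kmt2a (0.295 and 0.161) lost theirs in trisomy 13. The 4 named genes of trisomy 13 and the 4 of trisomy 16 kept their sign in all settings, with ranges of 0.70 to 1.32 for Hoxa5, 0.52 to 1.99 for Hoxd10, 0.18 to 0.72 for Hoxa10, 0.12 to 1.04 for Hoxd8, 0.59 to 1.90 for Hoxc8 and −2.40 to −1.25 for Hoxb9. The number of Hox genes on in every line was 11 at a level of 3, 7 at a level of 5 and 10 without the 3′-biased arrays, against 9. Ezh1 lost its call in 17 of 29 settings, Kmt2a in 21 of 30 and Msx1 in 16 of 26; the cause was not tested. Centring the arrays on their medians moved every gene by 0.20 in trisomy 13 and 0.24 in trisomy 16, and the Hox medians with them to 0.30 and 0.64, with 10 and 11 of 14 Hox genes above 0. The number of all genes called in trisomy 13 was 130, between 6 (block by first number) and 734 (without trisomy 13 replicate 2); the ranges were 0 to 16 for trisomy 16 (main 3), 0 to 45 for trisomy 1 (3), 0 to 40 for trisomy 19 (0), 0 to 24 for all trisomies (4), 0 to 349 for trisomy 13 minus trisomy 16 (179) and 0 to 44 between first numbers (8). Arrays give no depth, and a probe set near the lower end cannot show a decrease.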
